A study of Mus musculus with 16 samples.

Results

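Mouse BCR-ABL1-transformed cells that lacked CDK8 and were also exposed to the CDK8/CDK19 inhibitor Senexin B were compared with cells that had neither change. The comparison took 4 libraries of Cdk8 Δ/Δ Vav-Cre lines with 1 µM Senexin B for 48 h and 4 libraries of control lines with 0.01% DMSO for 48 h, chosen by their labels, which is 8 of the 16 libraries of the series. All lines were derived from C57BL/6N bone marrow and carry the retroviral BCR-ABL1 p185 oncogene, which the controls share. The labels call the controls wildtype, and the study's methods describe them as Cdk8 fl/fl, that is, with loxP sites around part of the gene and without Cre. The Vav promoter drives Cre in all blood cells, so Cdk8 was lost before transformation. Each replicate number was read as 1 line, so the Δ/Δ and fl/fl groups hold different lines. The solvent of the Senexin B cultures is not given in the labels.

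CDK8 and its paralog CDK19 are the alternative kinases of the Mediator kinase module, which also holds cyclin C, MED12 or MED12L, and MED13 or MED13L. The module binds reversibly to Mediator, the complex that links transcription factors to RNA polymerase II, and its kinases phosphorylate transcription factors. Deleting Cdk8 takes away the protein, whereas Senexin B blocks kinase activity and leaves the protein in place, so that in Δ/Δ cells the remaining target of the inhibitor is CDK19. The comparison asks what both changes do together.

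Between 13919525 and 17731914 reads were counted per library in the fl/fl DMSO group and between 14510986 and 16813588 in the Δ/Δ Senexin B group. B-lineage genes were abundant in both groups: Pax5, the factor that commits cells to the B lineage, ranged from 786 to 1616 CPM (counts per 1000000 reads, scaled by edgeR's TMM method) in fl/fl DMSO and from 964 to 1493 CPM in Δ/Δ Senexin B, and the summed level of 14 early B markers ranged from 5795 to 8729 CPM and from 5776 to 8964 CPM. The summed levels of 7 T-cell markers stayed at or under 1.38 CPM and those of 9 myeloid markers under 16 CPM in all 8 libraries. Expression profiles correlated across genes with r between 0.912 and 0.968 within Δ/Δ Senexin B, between 0.941 and 0.965 within fl/fl DMSO and between 0.918 and 0.959 across the groups. The ranges within and across groups overlapped.

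Cdk8 RNA (ENSMUSG00000029635, chromosome 5 from 146231230 to 146302874, GRCm38) was measured at 68.7, 61.8, 63.3 and 65.8 CPM in the fl/fl DMSO lines and at 43.9, 61.7, 42.9 and 41.2 CPM in the Δ/Δ Senexin B lines. Every Δ/Δ value lay below every fl/fl value, although line 2 of the Δ/Δ group came close. The log2 fold change was -0.45 with a standard error (SE) of 0.16 in edgeR (adjusted p = 0.901), with p = 0.0286 from a two-sided exact permutation test, the smallest that 4 against 4 libraries can give. Counts were summed over the whole gene, so reads from the part that remains after Cre recombination are included and the value is no measure of the protein. The Δ/Δ lines had a mean of 44.3 ± 7.10 CPM (SD, n = 4) in DMSO and 47.4 ± 9.60 CPM with Senexin B.

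The other genes of the kinase module differed by less than the spread between lines. Cdk19, which encodes the remaining kinase, was at 285, 171, 169 and 150 CPM in fl/fl DMSO and at 134, 142, 185 and 167 CPM in Δ/Δ Senexin B, and the groups overlapped (log2 fold change -0.30, SE 0.22). Without fl/fl line 1 the value was -0.055, and without both libraries numbered 1 it was 0.014. Ccnc, the cyclin subunit, stood at a log2 fold change of -0.13 (SE 0.16). The scaffold genes Med12 (0.09), Med12l (0.49), Med13 (0.08) and Med13l (-0.11) likewise stayed within their errors, with unadjusted p between 0.36 and 0.71 in edgeR.

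**Figure D1:**
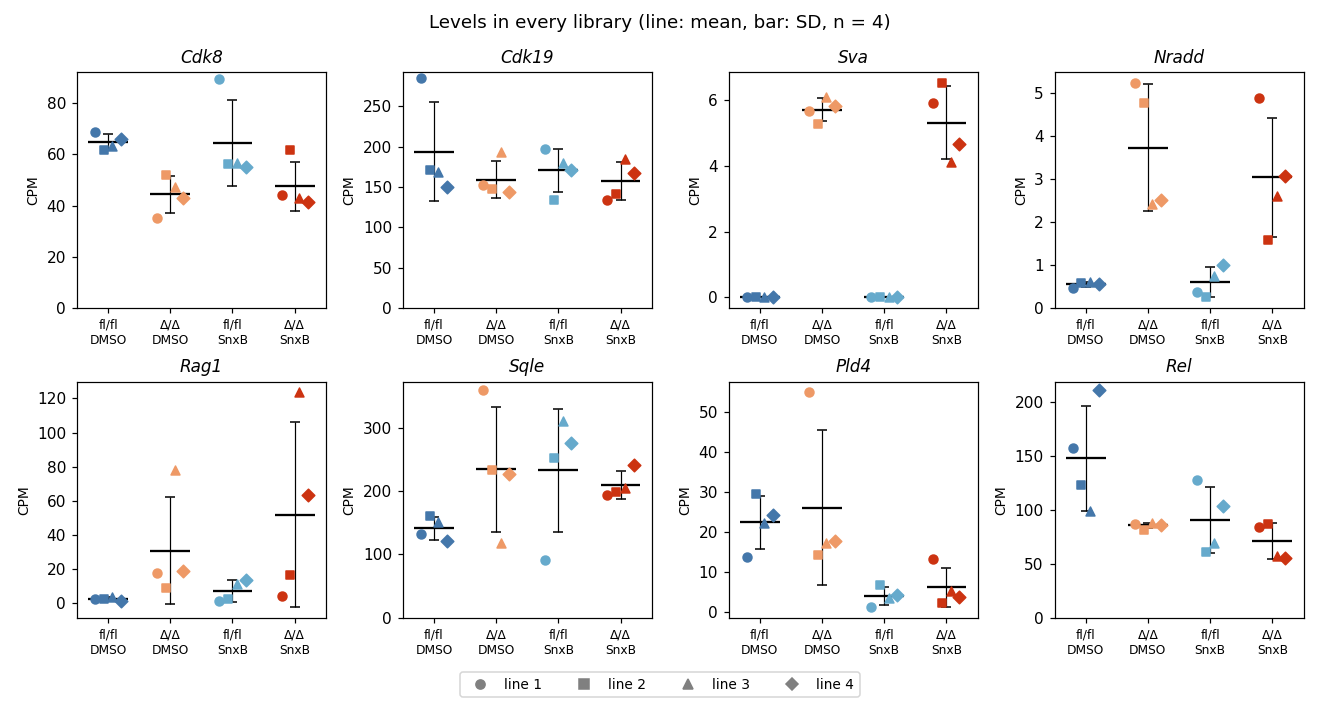
CPM of 8 genes (y axis) in each of the 16 libraries (points, shaped by line) in the 4 groups of genotype and treatment (x axis), with the mean and SD of 4 lines; SnxB is Senexin B. Sva and Nradd separate the genotypes with or without the inhibitor, Pld4 is low in most libraries with Senexin B, and Rag1 spreads from 4.08 to 124 CPM among the Δ/Δ Senexin B lines.

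Across the transcriptome, 13193 genes were tested and none passed an adjusted p of 0.05 and a 2-fold change in the quasi-likelihood test of edgeR (0 genes called, 0% of those tested). At an unadjusted p under 0.05 stood 653 genes (4.95%), of which 351 (2.66%) were higher and 302 (2.29%) lower in Δ/Δ Senexin B. The 4 libraries of one group lay wholly outside the range of the other 4 for 357 genes (2.71%), 175 of them higher (1.33%) and 182 lower (1.38%). DESeq2 called 61 of 15201 genes (0.401%), 41 higher and 20 lower, and 22 of the 61 had counts too low for edgeR's filter. Of the 61, 36 did not overlap between the groups, and all 39 that edgeR tested had an unadjusted p under 0.05 there. Both counts follow largely from the selection of the 61 on the same 8 libraries and are no separate support. The median log2 fold change over all genes tested was 0.0049, with 50.7% of genes above 0.

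**Figure D2:**
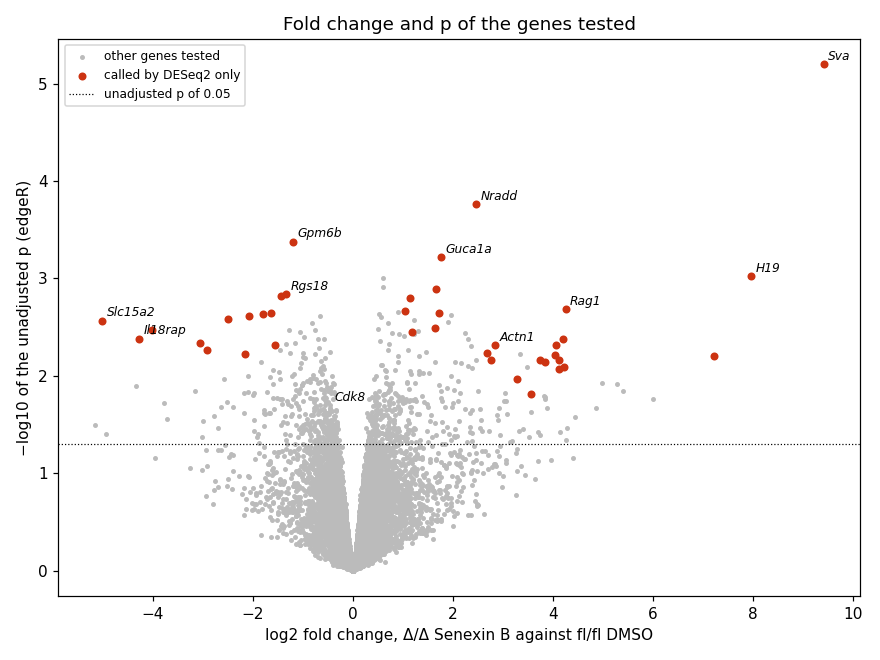
Log2 fold change of Δ/Δ Senexin B against fl/fl DMSO (x axis) and −log10 of the unadjusted edgeR p (y axis) for the 13193 genes tested; red points are the 39 of them that DESeq2 called. Sva stands at the top right, apart from all others, and no point passes the adjusted limit.

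The counts depended on single lines. Without Δ/Δ Senexin B line 1, 1566 genes were under an unadjusted p of 0.05 in edgeR and DESeq2 called 342 genes, 57 of the 61 among them. Without fl/fl DMSO line 1, these counts were 1025 and 98, and without both libraries numbered 1, edgeR counted 2048 genes. Leaving out Δ/Δ Senexin B line 3 instead left 22 DESeq2 calls, of which 15 were among the 61. EdgeR called 0 genes in each of these fits. DESeq2 called 10 genes whichever of the 8 libraries was left out: Sva, Dchs2, H19, Rag1, Gm37068, Guca1a, Nradd, Gm26947, Gpm6b and Il18rap. These 10 were picked out as a set after their values were seen, as were most other DESeq2 calls named here. Of the calls named, Rag2, Ccr7, Fcer1g and Fosb came in as list members with small unadjusted p. Sva, Nradd, H19, Rag1 and Actn1 came from earlier single comparisons of these libraries.

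**Figure D3:**
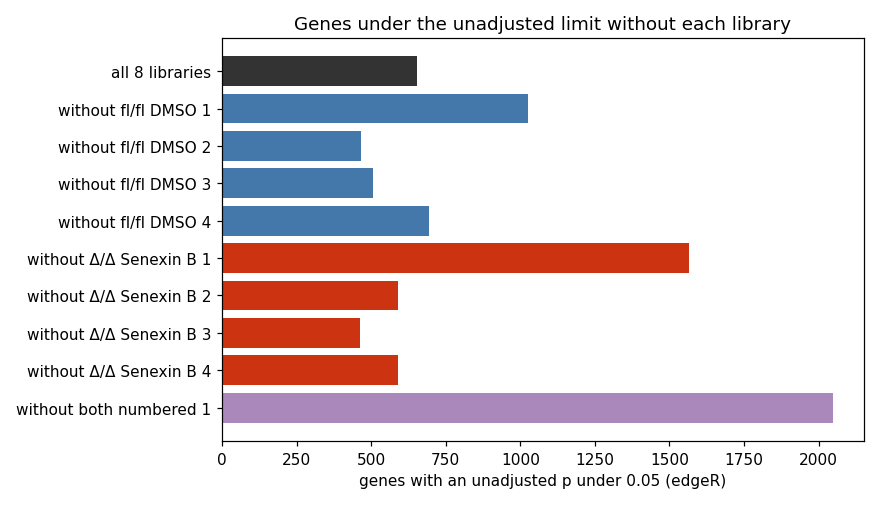
Number of genes with an unadjusted edgeR p under 0.05 (x axis) with all 8 libraries, without each one, and without both libraries numbered 1 (y axis). The count is 653 with all libraries, 1566 without Δ/Δ Senexin B line 1 and 461 without Δ/Δ Senexin B line 3.

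Sva, which encodes seminal vesicle antigen (ENSMUSG00000023289, chromosome 6 from 42038394 to 42042851), came nearest to the limits. It had 0 counts in all 4 fl/fl DMSO libraries and 103, 95, 68 and 67 counts in the Δ/Δ Senexin B libraries, that is 5.92, 6.53, 4.13 and 4.67 CPM. Its level was at least 29.0-fold higher than a floor of 3 counts per library, and its adjusted p was 0.0833 in edgeR. Sva passed both limits by DESeq2 (adjusted p = 3.0e-12), by edgeR without a low-count filter (adjusted p = 0.00428) or over all 16 libraries (adjusted p = 0.000235), and by limma voom with the line as a block (adjusted p = 0.0267). It was as high in Δ/Δ lines without inhibitor (5.71 ± 0.348 CPM, SD, n = 4) and at 0 in all fl/fl libraries with inhibitor.

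Nradd, a death-domain protein gene related to neurotrophin receptors, was at 0.462, 0.567, 0.590 and 0.560 CPM in fl/fl DMSO and at 4.89, 1.58, 2.61 and 3.07 CPM in Δ/Δ Senexin B, without overlap. Its log2 fold change was 2.47 (SE 0.39), and its adjusted p was 0.901 in edgeR and 0.00092 in DESeq2. Guca1a, a guanylate cyclase activator, showed the same separation, from 2.20 to 4.13 CPM against 7.46 to 15.3 CPM. H19, an imprinted non-coding RNA, was at or under 0.483 CPM in every fl/fl DMSO line and at 11.7, 1.65, 40.4 and 149 CPM in the Δ/Δ Senexin B lines. The groups were apart, yet the Δ/Δ lines spanned a far wider range than the fl/fl lines. Gpm6b, a membrane glycoprotein gene on the X chromosome, was at 80.4, 46.6, 55.2 and 60.7 CPM against 24.0, 20.6, 31.7 and 29.8 CPM (log2 fold change -1.19, SE 0.21; adjusted p = 0.00219 by DESeq2). Il18rap, an interleukin-18 receptor chain, ranged from 1.39 to 11.9 CPM in fl/fl DMSO and from 0 to 0.766 CPM in Δ/Δ Senexin B.

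For each gene the combined difference was divided into the step from fl/fl DMSO to Δ/Δ DMSO and the step from there to Δ/Δ Senexin B, on the log2(CPM + 1) scale. Both steps share the Δ/Δ DMSO libraries and are given as a description. The first step compares different lines and so also holds differences between lines, whereas the second compares the same Δ/Δ lines. Their sizes are therefore not on equal terms, and the 61 genes were selected on the combined difference. Over the 61 DESeq2 calls the first step was the larger for 50 genes, with a median size of 1.43 against 0.32 for the second. Over all genes tested the first step was the larger for 8006 of 13193 (60.7%), with medians of 0.16 and 0.12. Sva had steps of 2.75 and -0.10, Nradd of 1.56 and -0.24, H19 of 3.97 and 0.21 and the cyclic AMP phosphodiesterase Pde4d of -0.65 and 0.01. Pde4d was at 30.2, 31.6, 31.3 and 36.8 CPM in fl/fl DMSO and at 17.0, 23.0, 19.8 and 22.3 CPM in Δ/Δ Senexin B, without overlap.

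For some genes the Senexin B step was the larger. Pld4, an endolysosomal exonuclease, was at 13.8, 29.5, 22.3 and 24.4 CPM in fl/fl DMSO and at 13.4, 2.41, 5.28 and 3.90 CPM in Δ/Δ Senexin B, with line 1 just under the lowest fl/fl line. Its steps were 0.04 and -1.91, beside -2.29 for Senexin B in the fl/fl lines. Csf2rb2, a receptor chain for interleukin-3, had steps of 0.41 and -1.66, beside -2.03 in the fl/fl lines, and its levels were 28.7, 41.6, 23.8 and 40.6 CPM against 5.86, 21.7, 23.8 and 9.75 CPM. Fcrl1, an Fc receptor-like B-cell surface protein, ran from 19.4 to 31.9 CPM in fl/fl DMSO and was at 18.7, 1.93, 2.55 and 4.53 CPM in Δ/Δ Senexin B, with steps of -0.72 and -1.35. Gpm6b divided nearly evenly, with steps of -0.51 and -0.65. The adjusted p of Pld4, Csf2rb2 and Fcrl1 was 0.901 in edgeR, and DESeq2 called none of the 3. Pld4, Csf2rb2, Fcrl1, Pde4d, Sva, Nradd and H19, and also Rag1, Rag2, Bhlhe41, Cdkn1a, Actn1, Armcx1 and Igf1r, belong to 20 genes taken up because they stood out in earlier single comparisons of these libraries, so their separation is no independent evidence.

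Whether the inhibitor acted differently without CDK8 was tested with an interaction term in a fit of all 16 libraries. EdgeR called 0 of 14164 genes (0%), while 67 (0.473%) were under an unadjusted p of 0.05. This fit takes the libraries of a line as independent. Its share under 0.05 is far below what that limit gives by chance, so the 0 calls are no evidence of an equal response. DESeq2 also called 0, with 111 under 0.05. With the line as a block nested in genotype edgeR again called 0, with 459 genes (3.24%) under 0.05. For Pld4 the interaction was 0.41 on the log2 scale (SE 0.81), for Csf2rb2 0.54 (0.59), for Fcrl1 1.15 (0.81) and for Sqle -0.88 (0.47). These standard errors come from the fit without the line as a block.

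The V(D)J recombination genes held the widest single differences among the gene lists. Of 14 genes tested, 8 were above 0 and 6 below, with a median log2 fold change of 0.22. EdgeR called 0 and DESeq2 called 2, against 0.401% of all genes that DESeq2 tested. Rag1, a subunit of the recombinase that cuts immunoglobulin gene segments, was at 2.60, 2.77, 3.86 and 1.61 CPM in fl/fl DMSO and at 4.08, 16.8, 124 and 63.5 CPM in Δ/Δ Senexin B. The lowest Δ/Δ line, line 1, lay just above the highest fl/fl line, and the log2 fold change was 4.26 (SE 0.97; adjusted p = 0.901 by edgeR, 0.000239 by DESeq2). Its partner Rag2 was at 0.520, 2.20, 2.52 and 0.140 CPM against 1.78, 15.7, 44.9 and 16.1 CPM, overlapping through line 1. Xrcc6, the Ku70 end-joining subunit, was at 89.9, 92.0, 183 and 361 CPM in Δ/Δ Senexin B, and only lines 3 and 4 left the fl/fl neighbourhood of 75.8 to 95.3 CPM. Nhej1, an end-joining cofactor, was lower without overlap (log2 fold change -0.61, SE 0.27). Dntt, which adds bases at the joints, ran from 0.925 to 37.7 CPM in fl/fl DMSO and from 3.16 to 51.7 CPM in Δ/Δ Senexin B.

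Of 24 cholesterol synthesis and SREBP2 pathway genes, 23 were above 0 and 1 below, with a median log2 fold change of 0.42, and 0 were called by edgeR or DESeq2. Sqle, squalene epoxidase, was at 132, 160, 151 and 121 CPM in fl/fl DMSO and at 193, 199, 204 and 241 CPM in Δ/Δ Senexin B. All 4 lines lay above the fl/fl range, with a log2 fold change of 0.58 (SE 0.14; adjusted p = 0.901 in edgeR). Mvk, mevalonate kinase, was at 10.9, 23.7, 24.9 and 20.7 CPM against 11.6 to 14.2 CPM, with line 1 below the fl/fl range. The early enzyme gene Hmgcs1 (0.76) and the sterol-forming cyclase gene Lss (0.68) were higher in lines 2 to 4 and lower in line 1 than any fl/fl DMSO line. Relative to the fl/fl DMSO mean, the median of the list stood at -0.45 in line 1 and at 0.52, 0.51 and 0.91 in lines 2, 3 and 4. The list's median fold change was 0.64 without Δ/Δ Senexin B line 1 and 0.22 without line 4. In DMSO the same 4 Δ/Δ lines stood at 0.43, 0.51, -0.36 and 0.81, so line 1 was above the fl/fl mean without inhibitor and below it with inhibitor, and line 3 the reverse. Line 1 of the fl/fl genotype also stood at -0.38 with Senexin B, where the other 3 fl/fl lines stood between 0.83 and 1.16.

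**Figure D4:**
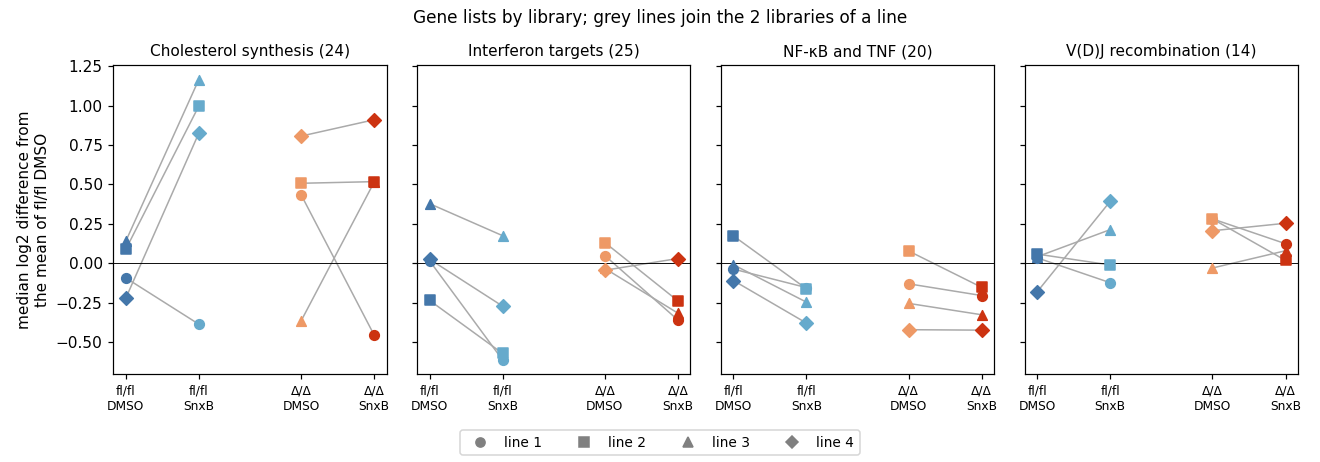
Median log2(CPM + 1) difference of the tested members of 4 gene lists from the mean of the fl/fl DMSO lines (y axis), for each of the 16 libraries in the 4 groups (x axis); grey lines join the libraries of a line. Line 1 with Senexin B is low for cholesterol synthesis in both genotypes. The NF-κB list lies between -0.15 and -0.42 in the Δ/Δ Senexin B lines. In the fl/fl Senexin B lines it lies between -0.15 and -0.38.

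Interferon target genes leaned the other way. Of 25 tested, 18 were below 0 and 7 above, with a median log2 fold change of -0.33, and 6 had an unadjusted p under 0.05 in edgeR, all lower, against 2.29% of all genes. None was called by edgeR. DESeq2 called Mx1, which was too low for edgeR's filter, with 0 counts in all 4 Δ/Δ Senexin B lines and between 0.0629 and 2.24 CPM in fl/fl DMSO. Irf7, a transcription factor of the interferon response, was at 11.7, 1.20, 7.99 and 8.12 CPM in fl/fl DMSO and at 0.805, 2.54, 2.06 and 1.95 CPM in Δ/Δ Senexin B (log2 fold change -1.97, SE 0.65). Oas3 and Oasl2, of the antiviral oligoadenylate synthetase family, stood at -1.97 (SE 0.75) and -1.39 (SE 0.53) on the log2 scale. For Irf7, Oas3 and Oasl2 the groups overlapped through fl/fl line 2, which was low for all of them. Gbp2, a guanylate-binding GTPase, was at 27.9, 36.8, 34.2 and 58.1 CPM against 31.2, 21.2, 22.0 and 19.4 CPM, and Gbp7 of the same family was at 238, 275, 231 and 231 CPM against 172, 233, 176 and 135 CPM. Without fl/fl line 3 the list's median was -0.14. The 7 members above 0 included Rnf213, an interferon-induced ubiquitin ligase, at a log2 fold change of 1.53, Oas1a of the same synthetase family as Oas3 at 1.12, and the antigen-processing genes Psmb9 at 0.48 and Tap1 at 0.34. For Oas1a the levels were 4.39, 0.378, 5.10 and 2.80 CPM in fl/fl DMSO and 0.977, 9.49, 10.6 and 6.48 CPM in Δ/Δ Senexin B, overlapping through line 1.

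Promoters of 4 members below 0 (Gbp2, Gbp7, Oas3 and the antiviral gene Rsad2) are shown because interferon regulatory factors are known to bind spaced AA and GAAA letters. RefSeq promoters (GRCm38.p6, 250 bases before to 50 after a transcript start) were found for 22 of the 25 genes, and 13 of the 22 (59.1%) held AANNGAAA on either strand, where N is any base, against 26.7% of all genes with a promoter there. The motif is short, was chosen with these results known, and its matches may overlap one another. In the following lines the matched letters are in capitals. A match is a description of the letters and no evidence of binding.
Gbp2 (chr3:142620413-142620712, plus strand): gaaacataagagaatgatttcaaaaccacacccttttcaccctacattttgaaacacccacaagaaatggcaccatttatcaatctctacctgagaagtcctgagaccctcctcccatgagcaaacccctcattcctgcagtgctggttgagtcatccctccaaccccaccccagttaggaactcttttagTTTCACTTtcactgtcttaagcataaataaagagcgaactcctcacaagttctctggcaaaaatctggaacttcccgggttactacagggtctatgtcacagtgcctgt
Gbp7 (chr3:142530086-142530385, plus strand): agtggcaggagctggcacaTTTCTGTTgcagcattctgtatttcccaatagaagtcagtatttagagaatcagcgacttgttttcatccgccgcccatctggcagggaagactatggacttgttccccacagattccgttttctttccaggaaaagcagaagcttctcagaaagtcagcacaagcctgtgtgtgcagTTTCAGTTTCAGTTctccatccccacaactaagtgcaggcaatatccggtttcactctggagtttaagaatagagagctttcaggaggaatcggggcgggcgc
Oas3 (chr5:120777610-120777909, minus strand): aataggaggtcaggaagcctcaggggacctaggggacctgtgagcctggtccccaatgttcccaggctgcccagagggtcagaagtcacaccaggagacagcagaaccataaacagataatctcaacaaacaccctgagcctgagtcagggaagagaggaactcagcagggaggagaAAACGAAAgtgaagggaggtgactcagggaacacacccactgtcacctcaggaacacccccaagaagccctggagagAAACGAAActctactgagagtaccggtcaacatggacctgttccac
Rsad2 (chr12:26456403-26456702, minus strand): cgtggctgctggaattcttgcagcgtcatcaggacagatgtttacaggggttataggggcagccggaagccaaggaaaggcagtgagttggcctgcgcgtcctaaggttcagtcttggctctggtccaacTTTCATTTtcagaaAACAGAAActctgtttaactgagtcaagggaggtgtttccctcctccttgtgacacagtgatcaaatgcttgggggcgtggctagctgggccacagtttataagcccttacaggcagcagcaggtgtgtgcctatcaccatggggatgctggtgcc

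NF-κB and TNF pathway genes were also mostly below 0, 15 of 20 tested, with a median log2 fold change of -0.36. In edgeR 5 were under an unadjusted p of 0.05, all lower (2.29% of all genes), 3 were lower without overlap between the groups (1.38% of all genes), and 0 were called by edgeR or DESeq2. Rel, the c-Rel subunit, was at 157, 123, 99.0 and 211 CPM in fl/fl DMSO and at 84.4, 86.8, 57.5 and 55.7 CPM in Δ/Δ Senexin B, without overlap (log2 fold change -1.05, SE 0.26; adjusted p = 0.901 in edgeR). Icam1, an adhesion molecule, ran from 27.9 to 38.4 CPM against 13.9 to 25.3 CPM, and Birc3, an inhibitor of apoptosis, stood at a log2 fold change of -0.35 (SE 0.14). Lta, lymphotoxin alpha, was at 416, 272, 623 and 305 CPM against 104, 297, 54.1 and 45.5 CPM, overlapping through line 2. The list's summed level ranged from 1299 to 1550 CPM in fl/fl DMSO and from 822 to 1155 CPM in Δ/Δ Senexin B. The median was also lower in both single comparisons with fl/fl DMSO. On the log2(CPM + 1) scale, the list's median against fl/fl DMSO was -0.19 for Δ/Δ DMSO and -0.21 for fl/fl Senexin B. From Δ/Δ DMSO to Δ/Δ Senexin B it was only -0.013. By line, Δ/Δ DMSO stood at -0.13, 0.079, -0.25 and -0.42 relative to the fl/fl DMSO mean. The inhibitor gene Nfkbia stood at 0.32 and Ikbkb at 0.26, above 0.

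Pre-B receptor signalling genes had a median log2 fold change of 0.01 over 18 genes. Cd79b, a signalling chain of the receptor, was at 1021, 1323, 923 and 1058 CPM in fl/fl DMSO and at 753, 444, 829 and 578 CPM in Δ/Δ Senexin B, without overlap (log2 fold change -0.73, SE 0.22), and the Src-family kinase gene Lyn stood at -0.56 (SE 0.22). The 28 B-lineage transcription factor genes had a median of 0.18: Pou2f2, which encodes OCT2, was lower without overlap (-0.91, SE 0.28), whereas Ikzf3, which encodes Aiolos, stood at 1.06 (SE 0.36) and the repressor gene Bhlhe41 at 2.39 (SE 1.02). Among 19 B-cell surface genes, 13 were above 0, and the median of 0.47 ran from 0.23 to 0.66 when single libraries were left out. In this list, the homing receptor Ccr7 was at 9.20, 14.4, 107 and 62.7 CPM against 4.05 to 9.59 CPM and was called by DESeq2 (adjusted p = 0.023).

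**Figure D5:**
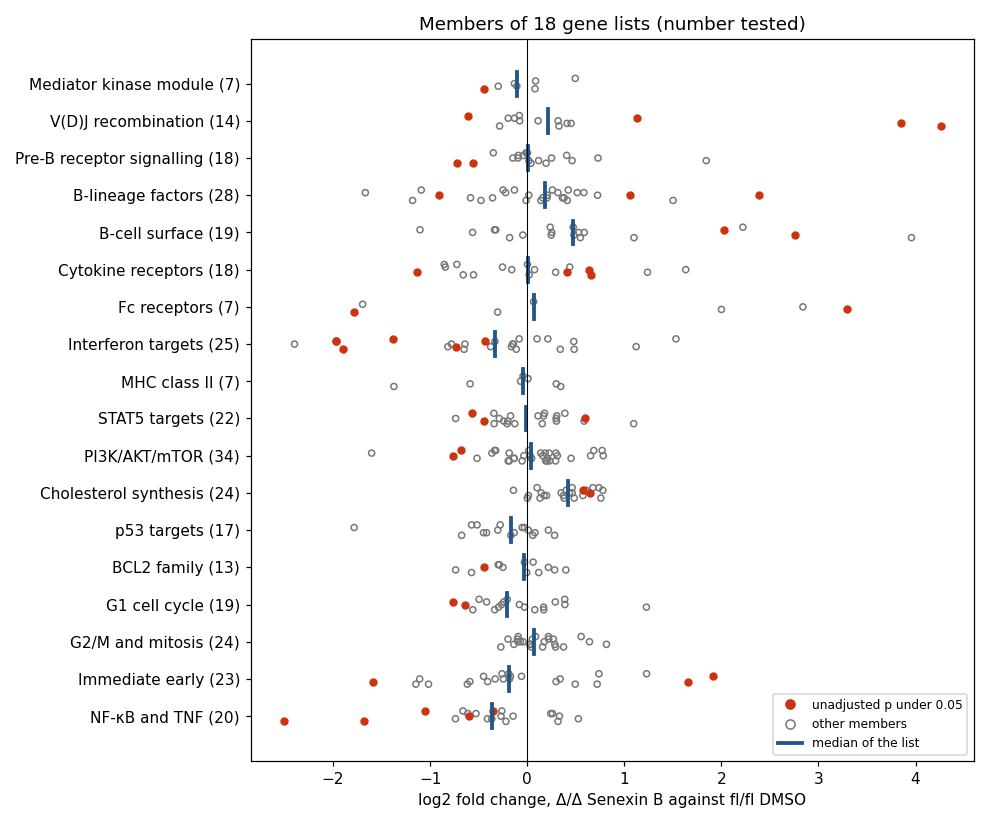
Log2 fold change of Δ/Δ Senexin B against fl/fl DMSO (x axis) for the tested members of 18 gene lists (y axis, number tested in brackets); red points have an unadjusted p under 0.05 and blue bars are medians. The cholesterol list lies almost wholly right of 0, with a median of 0.42, and the interferon and NF-κB medians lie at -0.33 and -0.36.

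Cytokine receptor genes had a median of 0.01 over 18 genes, with Il15ra (0.64, SE 0.19) and the interferon receptor chain Ifnar1 (0.41, SE 0.16) higher without overlap. Of 7 Fc receptor genes, 4 were above 0 and 3 below. DESeq2 called 1, against 0.401% of all genes that it tested. This was Fcer1g, the common gamma chain (log2 fold change 3.29, adjusted p = 0.0397), although line 1 at 0.402 CPM lay inside the fl/fl range. Fcrl1 went the other way and was lower without overlap (-1.78, SE 0.70). None of the 7 MHC class II genes reached an unadjusted p under 0.05 in edgeR (4.95% of all genes). STAT5 targets and feedback genes had a median of -0.0085 over 22 genes. Mcl1, an anti-apoptotic BCL2 family gene, was at 188, 153, 160 and 221 CPM against 133, 133, 143 and 119 CPM, without overlap (log2 fold change -0.45, SE 0.15), and the feedback inhibitor Spry1 stood at 0.60 (SE 0.20). The BCL2 family as a whole had a median of -0.029 over 13 genes and p53 targets of -0.17 over 17 genes, with Cdkn1a at -0.42 (SE 0.33).

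PI3K, AKT and mTOR pathway genes had a median of 0.044, with 20 of 34 above 0. The stress-induced mTOR inhibitors Sesn3 (-0.77, SE 0.26) and Ddit4 (-0.68, SE 0.25) were the 2 with an unadjusted p under 0.05 in edgeR (4.95% of all genes). G1 cell cycle genes had a median of -0.21 over 19 genes, with the cyclin gene Ccne2 at -0.64 (SE 0.18) and the CDK inhibitor gene Cdkn2d at -0.77 (SE 0.30). G2/M and mitosis genes had a median of 0.069 over 24 genes, and none had an unadjusted p under 0.05 (4.95% of all genes). Of 23 immediate early genes, 3 had an unadjusted p under 0.05 (4.95% of all genes), 2 of them above 0 and 1 below. Egr3 was at 2.07, 2.68, 3.58 and 1.11 CPM against 0.378 to 0.925 CPM, without overlap (log2 fold change 1.91, SE 0.46). Fosb was at 43.4, 32.6, 41.3 and 15.7 CPM against 7.36 to 18.3 CPM and was called by DESeq2 (adjusted p = 0.0378), while Egr1 was at 216, 400, 139 and 565 CPM in fl/fl DMSO and at 216, 76.9, 71.5 and 73.5 CPM in Δ/Δ Senexin B.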

How the data were processed

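RNA of 16 libraries was sequenced as 50-base single ends. The deposited values are raw counts per gene. Per the labels and the study's methods, the authors trimmed reads with Trimmomatic, mapped them with STAR to GRCm38 and counted them with featureCounts, without normalization. Strand was not used in counting, so overlapping genes cannot be told apart. The header of 1 file (fl/fl DMSO 1) names another annotation folder, but the gene models were identical. Of 50686 gene identifiers, 310 had no symbol.

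The tests were run in edgeR 4.0.16 under R 4.3.3, with filterByExpr, TMM factors and the robust quasi-likelihood test on the 8 libraries compared, with Benjamini-Hochberg adjustment over all genes tested. Limits were a fold change over 2 and an adjusted p under 0.05. DESeq2 1.42.0, limma 3.58.1 voom, RLE factors, other filters and limits, all 16 libraries, a replicate block, exclusion of X and Y or receptor segment genes, and leaving out each library were alternatives. DESeq2 without each library, both libraries numbered 1 left out, and list medians under each setting were added after seeing the data. Standard errors come from the log2 fold change and F. Steps between groups are differences of mean log2(CPM + 1). Fits were tested on simulated data. No pair of libraries in a group was a copy. Labels do not say that lines came from separate mice, so p-values measure the spread between lines. Counting floors of 3 counts cover counting error only. Fewer cells of a type and less RNA per cell cannot be told apart. Members and gene lists were chosen with earlier results of these data known. Named are the kinase module, up to 4 members of each list by unadjusted p, 20 genes from single comparisons, and others stated as picked later. A few genes are not reported here. Figures were drawn with matplotlib 3.10.9.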

Additional observations from a re-analysis of the deposited data

Results flagged for a closer look

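Untransformed CPM of 86 genes named by the fixed rule were searched for 1 of 4 libraries far from the other 3. For normally distributed values chance gives about 1 in 20. CPM need not be so distributed, and many of the genes were picked by small p or earlier results, so that rate is only a rough guide. Such a library was found in 13 of 172 gene and group combinations. In Δ/Δ Senexin B line 1 these were Id1 at 2.53 CPM (others 0.971 to 1.18), Fcrl1 at 18.7 CPM (others 1.93 to 4.53), Fcgr1 at 0.920 CPM (others at or under 0.138), Fas at 2.41 CPM (others 0.279 to 0.486), Egr1 at 216 CPM (others 71.5 to 76.9) and Armcx1 at 5.34 CPM (others at or under 0.756). In fl/fl DMSO line 1 they were Cdk19 at 285 CPM (others 150 to 171), Cdk2 at 539 CPM (others 357 to 376) and Igf1r at 6.30 CPM (others 0.315 to 1.13). Cdk8 was at 61.7 CPM in Δ/Δ Senexin B line 2 (others 41.2 to 43.9). H2-DMa was at 23.6 CPM in Δ/Δ Senexin B line 3 (others 1.58 to 4.43), Oas3 at 0.252 CPM in fl/fl DMSO line 2 (others 3.41 to 3.92) and Fosb at 18.3 CPM in fl/fl DMSO line 3 (others 7.36 to 8.47). No named gene had all lines of one genotype move up and all of the other move down with Senexin B.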

How the results depend on the processing

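The count of 0 genes called by edgeR was 0 with RLE factors, a mean of at least 1 CPM, no fold limit, without X and Y or receptor segment genes, without both libraries numbered 1, and without each library (0 to 0). It was 1, Sva, without a low-count filter, over all 16 libraries, with limma voom and at an adjusted p under 0.1, and 61 by DESeq2, which without each library gave 22 to 342. With the replicate block it was 0, with 460 genes at an unadjusted p under 0.05. Deviations of same-numbered libraries correlated at -0.21, -0.12, -0.039 and 0.24, and those of differently numbered libraries between -0.28 and 0.28. These values show no pairing of Δ/Δ with fl/fl lines by number. They compare unlike treatments, and whether libraries of a number shared a batch or handling was not tested. The interaction stayed at 0 under every alternative run, without each library included (0 to 0). The Cdk8 log2 fold change ran from -0.60 to -0.39 without each library.

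Single genes changed sign in 12 cases, none of them called: Cdk19 (0.014) and Igf1r (0.14) without both libraries numbered 1; Med12 (-0.0076) and Med13 (-0.014) without fl/fl DMSO line 3; Med12 (-0.046), Med13 (-0.033) without Δ/Δ Senexin B line 4; H2-Ob (-0.16) and H2-DMa (-1.03) without Δ/Δ Senexin B line 3; H2-Ab1 without fl/fl DMSO line 2 (0.60), with voom (1.44) and with the replicate block (0.82); and H2-DMa with voom (-0.090). Without each library, Med12 ran up to 0.29, Med13 to 0.17 and H2-Ob to 0.65, and H2-Ab1 down to -1.79. At these depths genes under 1 CPM rest on few counts.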

Other observations

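Δ/Δ Senexin B lines 3 and 4 were the most alike of the 6 pairs in their group (r = 0.968 across genes, which are not independent). Klrb1c, an NK-cell receptor gene, was at 20.6 and 81.4 CPM in these lines and at 0.575 and 0.275 CPM in lines 1 and 2. It lay between 1.18 and 6.17 CPM in fl/fl DMSO. Ncr1, the other NK marker listed, had no counts in any of the 8 libraries. The erythroid globin gene Hbb-bt ranged from 3.22 to 146 CPM in fl/fl DMSO and from 3.71 to 264 CPM in Δ/Δ Senexin B, while the erythroid factor gene Klf1 stayed at or under 1.32 CPM in all 8 libraries.

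A further 3 DESeq2 calls are given here. Dchs2 and Slc15a2 were picked out after their values were seen, and Actn1 came from the earlier single comparisons. Actn1, an actin crosslinker, was at 31.5, 58.1, 225 and 216 CPM in Δ/Δ Senexin B against 7.99 to 37.8 CPM in fl/fl DMSO, with an adjusted p of 0.0107 by DESeq2. Dchs2, a protocadherin gene, was at 0.460, 10.2, 82.5 and 6.27 CPM against at most 0.289 CPM. Slc15a2, a peptide transporter gene, was at or under 1.44 CPM in every Δ/Δ Senexin B line and between 7.46 and 27.0 CPM in fl/fl DMSO.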
